A study of Mus musculus with 21 samples.

Results

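DNA repair genes that are known as p53 targets were examined for contact by p53 in cells that had received no damaging treatment. The 8 genes were Xpc, Ddb2 and Ercc5 of nucleotide excision repair, Polk and Polh of translesion synthesis, Rrm2b of nucleotide supply, Fancc of the Fanconi anaemia pathway and Rad51c of homologous recombination. They were chosen by name, with earlier results of these data known. A peak counted for a gene if it carried the gene's name in the deposited annotation or lay within 5 kb of its RefSeq span. The 8 members stand among 49980 RefSeq genes placed on the mouse assembly GRCm38, which mm10 represents.

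The cells were ID8, an immortalized line from the ovarian surface epithelium of C57BL/6 mice, untreated and in asynchronous growth. A p53 antibody was used in CUT&RUN, in which an antibody-guided nuclease releases the DNA beside the bound protein, on 2 samples with intact Trp53 (Trp53+/+, WT) and 2 samples without it (Trp53-/-, KO). The sources used here do not give how the knockout was made or from how many clones. The deposited data are 1 WT list of 6811 peaks, 1 KO list of 9784 peaks and a WT-specific list of 2127 peaks with gene and repeat annotation. Each genotype has 1 list for its 2 samples, without scores, so no value below has a replicate error, read depth is unknown and samples could not be tested against each other. The KO list is the background of the same antibody in cells that lack its target.

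p53 is a transcription factor that is kept low by Mdm2 and accumulates after DNA damage. Among the genes it can activate are repair factors. Nucleotide excision repair removes bulky lesions such as those from ultraviolet light, translesion polymerases copy past lesions that remain, and ribonucleotide reductase supplies the deoxynucleotides for repair synthesis. The Fanconi anaemia pathway undoes crosslinks between strands, and homologous recombination repairs double-strand breaks from an intact copy. Much of what is known of these genes as p53 targets comes from human cells, Ddb2 included. Whether p53 controls the mouse Ddb2 gene was not tested here.

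Ercc5 and Polk had a WT-specific peak, Xpc had only a WT peak outside that list, and the other 5 genes had no peak within 5 kb. Thus 2 of 8 members (25.0%) had a WT-specific peak within 5 kb, beside 3.32% of all RefSeq genes, 4.93% of 21900 protein-coding genes and 7.31% of the 7467 protein-coding genes whose spans fall in the members' range of 25.6 to 196.0 kb. Any WT peak was found at 3 of 8 (37.5%), beside 9.05%, 13% and 19.3% in the same backgrounds. No member had a KO peak within 5 kb, where 11.4%, 16% and 22.9% of genes did. Accordingly, none of the 3 WT peaks at members was overlapped by a KO peak, as was so for 2768 of all 6811 WT peaks. With only 8 genes, 1 gene more or fewer moves a share by 12.5 percentage points. Because the members were chosen with earlier results known, these shares describe the 8 genes and are not an unbiased comparison with the backgrounds.

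The sequences around the starts of the members were read from RefSeq windows on GRCm38 that run from 250 bases before a start site to 50 after it. They are shown because a p53 site is made of a pair of half-sites, and these are the stretches nearest to that pattern in the members' windows. Windows were found for 5 members, Ercc5, Polk, Polh, Fancc and Rad51c. There was no entry for Xpc, Ddb2 or Rrm2b. Each window was searched on both strands for the p53 half-site consensus of 10 bases, with the C and G of its core fixed and up to 1 mismatch elsewhere. The consensus is its own reverse complement, so a match counts for both strands. In the sequences, the half-site is in capitals with 10 flanking bases in lower case, written 5′ to 3′ on the gene's strand, which is the minus strand in each.
Polk, second start, chr13:96519399-96519428: catgtagcttGAACTAGCCTcaaacttatt
Rad51c, outer start, chr11:87405129-87405158: ttcttactctAGGCAGGCCTgccgacatga
Rad51c, outer start, chr11:87404966-87404995: ccaaagtgggAGGCTGGCCCacaatccccc
Polk, second start, chr13:96519254-96519283: ctcttgcatgAGGCGAGCCCtctacttaat
Fancc, chr13:63431942-63431971: accacagacaAAACTCGTTTgtggttgggc

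These 5 are all the matches found in the members' windows. The first Polk match had 0 mismatches, and 8.36% of all 32851 windows in the table hold such a half-site. The other Polk match and those of Rad51c and Fancc had 1 mismatch each, and 50.9% of all windows hold a half-site of that quality or better. No member window held a pair of half-sites 0 to 13 bases apart, which 2.71% of all windows hold. The windows at the Ercc5 start, the outer Polk start, the Polh start and the inner Rad51c start held no match. The WT-specific peaks at Ercc5 and Polk lie outside these windows, as given below, so the letters under those peaks were not examined. Both Polk matches belong to the second start, at 96519187, whereas the Polk peak at 96541742 to 96542498 is beside the outer start. The Fancc match belongs to a start at 63431745, inside the gene span, whose upper edge is at 63497292. No window at that upper edge was available.

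The 3 members of nucleotide excision repair differed from each other. Ercc5 encodes XPG, the nuclease that cuts on the 3′ side of the lesion (RefSeq gene 22592, chromosome 1, positions 44146948 to 44181260). Its WT-specific peak of 547 bp at positions 44148428 to 44148974 was the same interval in the WT list. The peak lay inside the gene, from 684 to 1230 bp downstream of the RefSeq start site at 44147744 on the plus strand. No repeat was annotated in it, as for 32.1% of WT-specific peaks. Its class in the deposited annotation is 3′ UTR, although it sits near the start of the gene. Of 23 WT-specific peaks in that class whose labelled gene has a RefSeq start, 2 were within 2 kb of it. The nearest other gene, Bivm, ended 3657 bp away, and the nearest KO peak was 211 kb from Ercc5. In length the peak exceeded 63.3% of the WT-specific list.

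Xpc encodes the damage sensor that opens repair across the genome (RefSeq gene 22591, chromosome 6, positions 91489305 to 91515888). A WT peak of 261 bp at positions 91488737 to 91488997 lay 308 bp outside the lower edge of the gene. It stood in the gap between Xpc and its neighbour Tmem43, which ends 274 bp from the peak. The peak also ended 1233 bp before the start of Gm52912, a long noncoding RNA gene on the plus strand. It had no KO overlap, but it is 1 of the 712 WT peaks without a KO overlap that are outside the authors' WT-specific list. Such a left-out peak was within 5 kb of 1 of 8 members (12.5%), beside 1.32% of all genes, 2.03% of protein-coding genes and 3.08% of those with similar spans. The left-out peaks had a median length of 225 bp, and 65.9% of them were shorter than the one at Xpc. The nearest WT-specific peak was 12.2 kb from Xpc, with 831 bp at positions 91476278 to 91477108, annotated as 3′ UTR of Tmem43 and overlapping MIRb, a short interspersed repeat. A WT-specific peak at least as near was found for 6.56% of protein-coding genes. Within 50 kb of Xpc there were 4 WT peaks, of which 1, at 47239 bp, was overlapped by a KO peak. The gene table has no strand for Xpc, so which of its ends the nearest peak adjoins was not examined.

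Ddb2 encodes the protein that recognises ultraviolet lesions together with Ddb1 (RefSeq gene 107986, chromosome 2, positions 91211545 to 91237132). Its nearest WT-specific peak was 1495 kb away, on an MMERGLN_LTR element, a long terminal repeat of an endogenous retrovirus, and 87.5% of protein-coding genes had one at least as near. The only WT peak within 50 kb, of 235 bp at 28.3 kb, was overlapped by a KO peak over 189 bp. Of the 8 members, Ddb2 was the farthest from the WT-specific list.

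**Figure D1:**
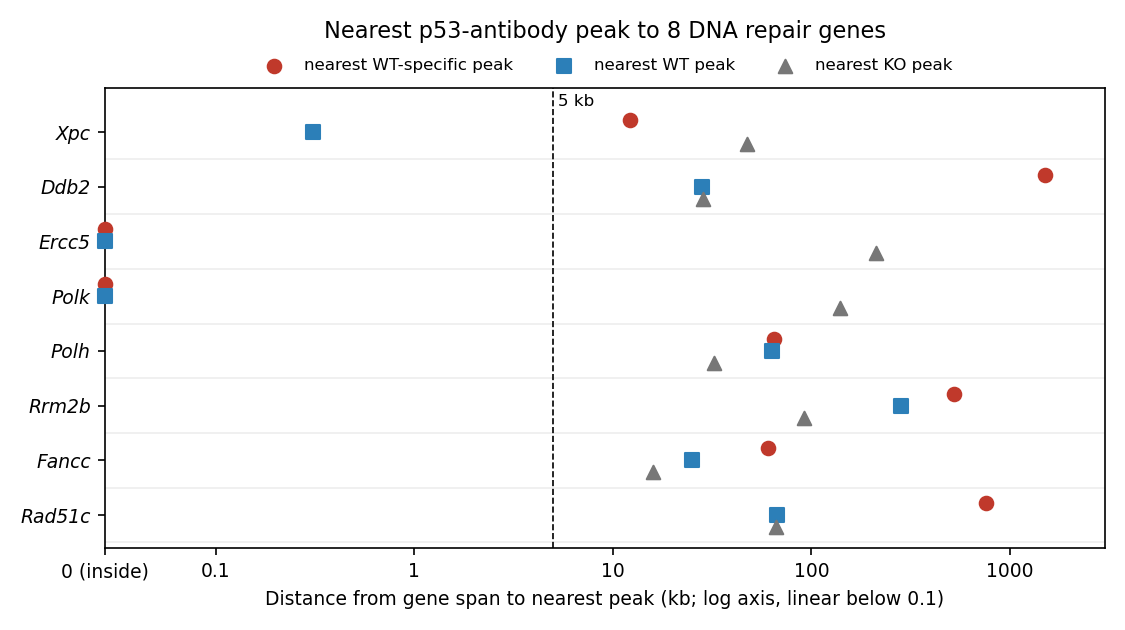
Distance in kb, on a logarithmic axis that is linear below 0.1 kb, from the span of each of 8 repair genes to its nearest WT-specific (circles), WT (squares) and KO (triangles) peak, from 1 list each. Ercc5 and Polk have the WT-specific peak inside the gene, Xpc has a WT peak at 0.308 kb, and every KO peak lies beyond the dashed line at 5 kb, from 16.0 kb (Fancc) to 211 kb (Ercc5).

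The translesion polymerases differed. Polk encodes polymerase kappa, which copies past bulky adducts on guanine (RefSeq gene 27015, chromosome 13, positions 96480687 to 96542579, minus strand). A WT-specific peak of 757 bp at positions 96541742 to 96542498 lay inside the gene, from 81 to 837 bp downstream of its outer start site at 96542579. The deposited annotation gives this peak to the promoter of Col4a3bp, the older name of Cert1, a ceramide transfer protein gene that starts at 96542735 on the opposite strand. The peak ended 237 bp before that start, so it lay nearer to the Polk start than to the start of the gene in its label. No repeat was annotated in the peak. It exceeded 84.3% of the WT-specific list in length, and the nearest KO peak was 139 kb from Polk.

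Polh encodes polymerase eta, which copies accurately past ultraviolet-induced dimers and is lacking in the variant form of xeroderma pigmentosum (RefSeq gene 80905, chromosome 17, positions 46171355 to 46202641, minus strand). No peak of any list lay within 10 kb. The nearest WT-specific peak, of 276 bp without a repeat in an intron of Tjap1, was 65.2 kb away, and 17.3% of protein-coding genes had one at least as near. The nearest WT peak, at 63.5 kb, was overlapped by a KO peak, and the nearest KO peak of all was closer, at 32.4 kb.

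Rrm2b, which encodes the p53-inducible small subunit of ribonucleotide reductase, was the most isolated member in the WT list (RefSeq gene 382985, chromosome 15, positions 37923952 to 37961119). Its nearest WT peak of any kind was 284 kb away, of 236 bp and without a KO overlap. A WT peak at least as near was found for 72.9% of protein-coding genes. The nearest WT-specific peak was 520 kb away, on RLTR1B, another retroviral long terminal repeat, in an intron of Ncald. A KO peak of 197 bp lay nearer, at 91.4 kb.

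Fancc encodes a subunit of the Fanconi anaemia core complex, the ubiquitin ligase of crosslink repair (RefSeq gene 14088, chromosome 13, positions 63301334 to 63497292, minus strand). Although it has the longest span of the 8, it held no peak of any list. Within 50 kb there were 3 WT peaks, of 212, 721 and 833 bp, and each was overlapped by a KO peak, over 212, 710 and 770 bp. The KO list had 6 peaks in the same reach, the nearest at 16.0 kb. The nearest WT-specific peak was 60.5 kb away, of 377 bp without a repeat, and was annotated as 3′ UTR of AC130827.2.

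Rad51c encodes a protein that assists strand exchange in homologous recombination (RefSeq gene 114714, chromosome 11, positions 87376645 to 87404954, minus strand). No WT or KO peak lay within 50 kb. Its nearest WT peak, of 204 bp at 67.0 kb, was overlapped by a KO peak. The nearest WT-specific peak was 758 kb away, on RSINE1, a short interspersed repeat, in an intron of Vmp1, and 72.2% of protein-coding genes had one at least as near.

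**Figure D2:**
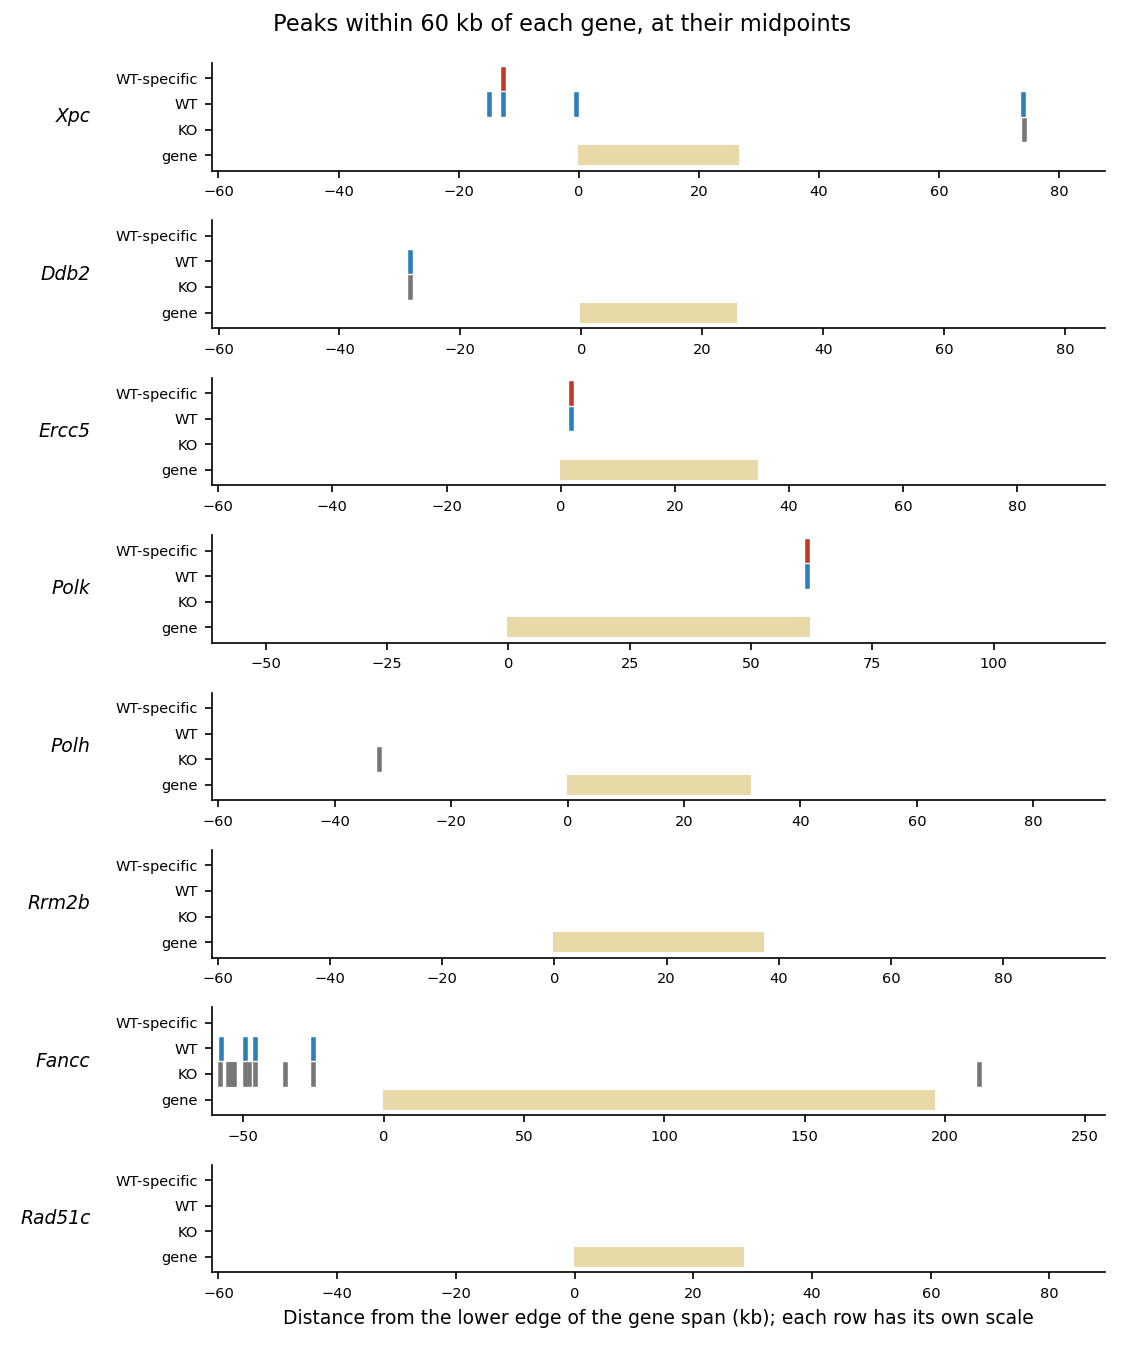
Midpoints of WT-specific, WT and KO peaks (vertical marks, not to peak width) within 60 kb of each of the 8 genes (bars), against distance in kb from the lower-coordinate edge of the gene. Peaks inside a gene are seen at Ercc5 and Polk only, the 4 WT peaks beside Fancc stand over KO peaks, and Rrm2b and Rad51c have none in view.

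Across the 8 genes, the distance to the nearest WT-specific peak ran from 0 to 1495 kb with a median of 62.8 kb, beside a median of 307 kb over protein-coding genes of similar span. For KO peaks the members' median was 56.9 kb, beside 75.8 kb. By arm, 1 of 3 excision repair members had a WT-specific peak and another had a left-out WT peak, and 1 of 2 translesion polymerases had a WT-specific peak. The members from nucleotide supply, the Fanconi anaemia pathway and recombination had neither. A peak list shows presence only, so a weaker contact at the genes without a peak was not detectable.

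The 2 WT-specific peaks at members were longer than the list's median of 454 bp and shorter than the longest peaks at Cdkn1a and Mdm2, p53 targets of other roles. The reference peaks at Cdkn1a, which encodes the cell cycle inhibitor p21, were 1800 and 2094 bp, longer than 99.2% and 99.5% of the list. Those at Mdm2 were 1579 and 361 bp. Ercc5 and Polk, at 547 and 757 bp, fall between the longer and the shorter of the Mdm2 peaks. Peak length is not a measure of binding strength, and no score was given.

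To see whether other parts of these pathways were contacted, 156 further repair genes in 10 arms were examined. A WT-specific peak lay within 5 kb of 11 of them, 7.05% (95% exact binomial interval 3.57 to 12.3, treating genes as independent draws and covering counting error only). That interval takes in both the 4.93% of protein-coding genes and the 7.31% of those with the members' spans. A WT peak lay at 17 (10.9%) and a KO peak at 31 (19.9%), beside 13% and 16% of protein-coding genes and 19.3% and 22.9% of those with the members' spans.

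Of the 11 genes, 10 are described here by arm. In excision repair it was Ddb1, the partner of Ddb2. Its peak of 379 bp, labelled promoter of Ddb1, ended 1591 bp before the Ddb1 start and lay within 5 kb of the neighbouring gene Tkfc. A WT peak of 304 bp without KO overlap stood beside this peak. In translesion synthesis it was Rev1, the deoxycytidyl transferase that also holds the other polymerases together, with an intronic peak of 362 bp from 977 to 1338 bp downstream of its start. In nucleotide supply there were Dut, the dUTPase, with an intronic peak of 752 bp on RSINE1, and Tyms, thymidylate synthase, with peaks of 517 and 699 bp. Both Tyms peaks were on RLTR1B elements and labelled intergenic, 27067 and 38992 bp from the Tyms start. The longer one lay 3913 bp outside the gene.

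Recombination had Rad51b, related to Rad51c, with intronic peaks of 444 and 626 bp that lay 352192 and 422820 bp from its start. The longer was on MMERGLN_LTR. The Rad51b span also held KO peaks, and its other WT peaks were overlapped by them. The Fanconi anaemia arm had Brip1, a helicase, with an intronic peak of 256 bp on ORR1E, a retroviral long terminal repeat. End joining had Xrcc4, the ligase partner, with an intronic peak of 366 bp on RSINE1, 198466 bp from its start. It also had Nhej1, which encodes XLF, with peaks of 319 and 371 bp. The shorter Nhej1 peak was intronic and overlapped RLTR1B. The longer was labelled intergenic, on a short interspersed repeat, 688 bp from the Nhej1 start. Direct reversal had Mgmt, which removes alkyl groups from guanine, and Alkbh3, a dioxygenase that reverses methylation. The Alkbh3 peak of 627 bp was labelled intergenic, on RLTR1B, and lay 2562 bp outside the gene. The Mgmt peak of 629 bp began 6 bp before the start site and was labelled promoter. None of the 21 genes of base excision and single-strand break repair and none of the 18 of damage signalling had a WT peak of any kind within 5 kb. For WT-specific peaks, the 95% intervals of these 2 arms reach up to 16.1% and 18.5%. Both take in the 4.93% of protein-coding genes, so the absence does not set these arms apart. A KO peak lay at 5 (23.8%) and 2 (11.1%) of their genes, beside 16% of protein-coding genes.

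**Figure D3:**
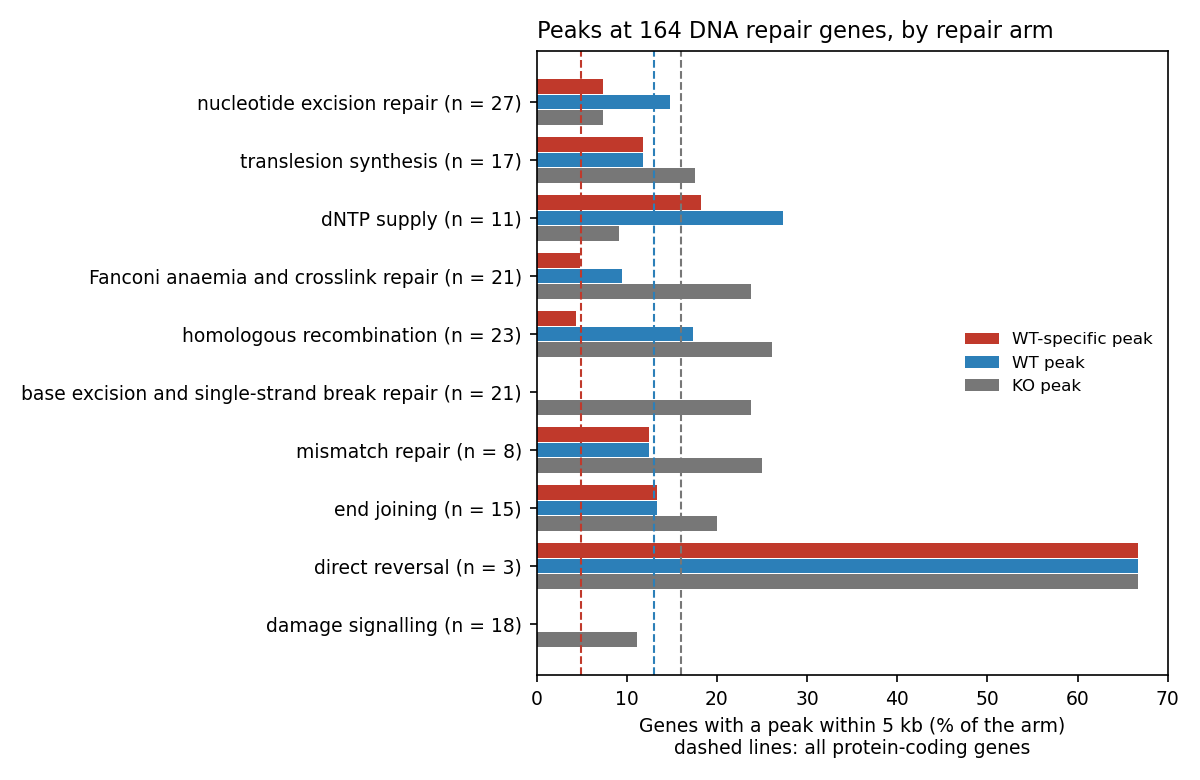
Share of genes, in percent, with a WT-specific, WT or KO peak within 5 kb in each of 10 repair arms (8 members and 156 further genes), with dashed lines at the shares over all protein-coding genes (4.93%, 13% and 16%). The arms are small, down to 3 genes, so 1 gene can move a bar widely; base excision repair and damage signalling have KO peaks only.

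A further 6 of the listed genes had a WT peak but no WT-specific one. Those at Fanci, Swsap1, Rad51ap1 and Ercc1 were overlapped by a KO peak. Those at Dguok, of 228 bp inside the gene, and at Xrcc3, of 198 bp at 2498 bp, were not. However, a KO peak of 205 bp stood close beside the Xrcc3 peak, at 2879 bp from the gene. The Xrcc3 WT peak was also short, with 6.96% of the WT list shorter. Of the 31 listed genes with a KO peak, 4 also had a WT-specific peak, namely Dut, Rad51b, Nhej1 and Mgmt. Over all 164 listed genes, members included, 7.93% had a WT-specific peak. The same share among all RefSeq genes with a KO peak was not counted.

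The 13 listed genes with a WT-specific peak, Ercc5 and Polk included, carried 16 such peaks, and the peaks without a repeat stood nearer to the starts. Of the 7 without a repeat, 6 had a RefSeq start for their gene and 5 of these were within 2 kb of it, at Ercc5, Polk, Ddb1, Rev1 and Mgmt. Of the 9 on a repeat, 1 was within 2 kb, at Nhej1. The median distances to the start were 0.831 and 39.0 kb. The same order held over the whole WT-specific list, where 27.8% of 683 peaks without a repeat and 8.31% of 1444 peaks on a repeat were within 2 kb of any RefSeq start. None of the 16 peaks was overlapped by a KO peak, and neither were 2056 of the 2127 peaks in the list.

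**Figure D4:**
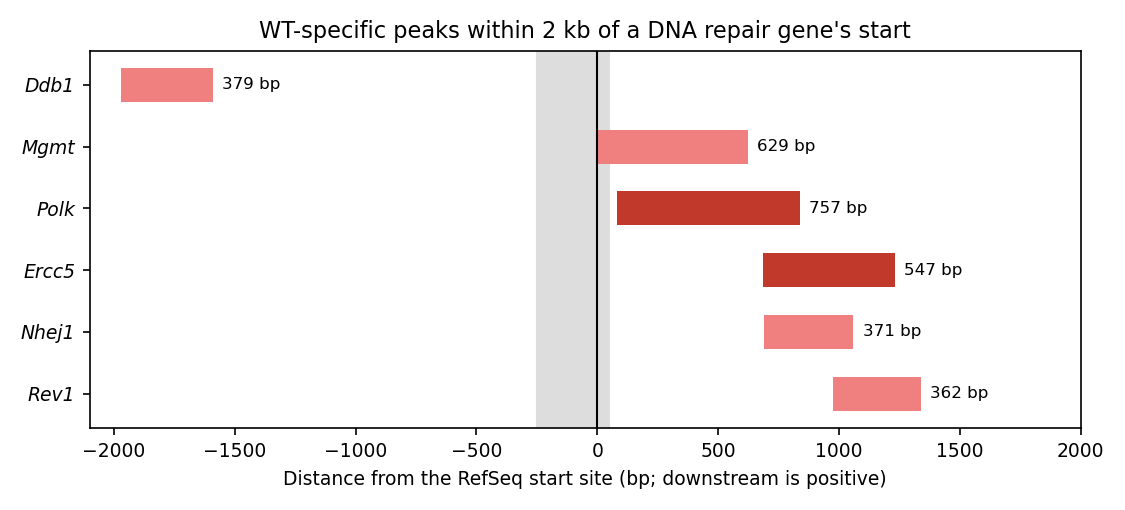
Position and length in bp of the 6 WT-specific peaks within 2 kb of a listed repair gene's start, downstream to the right, with the start at 0 and the searched sequence window shaded. Ercc5 and Polk (dark) lie downstream of the start and outside the window, as do Nhej1 and Rev1, the Mgmt peak covers the start, and Ddb1 lies upstream.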

How the data were processed

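The p53 antibody libraries are 2 WT and 2 KO samples of a series of 21. Per the submitters' processing notes, fastp, Bowtie2, MACS2 and deepTools were used with mm10. The sources used here do not state versions, settings, pooling or the rule for WT-specific peaks. The deposited lists hold interval positions without a score. The 2127 WT-specific intervals are the same in the list, the BED file and both annotation tables.

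Starts were read as 0-based and are printed 1-based. Overlap means at least 1 bp. Distance runs from edge to edge of peak and RefSeq gene span, with 0 for overlap. Start sites come from the RefSeq promoter table, which lacks 3 members. All 8 members and 156 other repair genes matched a RefSeq gene, 1 by an older name. Every other repair gene with a WT-specific peak is named, except 1 that is counted but not reported here, and up to 10 with another WT peak. The members and lists were chosen with earlier results of these data known. Distance, window and motif code was tested on simulated data. Alternatives covered the window, the peak list, the longer 50% of peaks, the overlap rule and the start site. Python 3.11.15, numpy 2.4.6, scipy 1.17.1 and matplotlib 3.10.9 were used.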

Additional observations from a re-analysis of the deposited data

How the results depend on the processing

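The count of members with a WT-specific peak, 2 within 5 kb, was 2 or 3 under each change of window or peak list, and 1 by the gene name in the deposited annotation, which gives the Polk peak to Col4a3bp. Taking all WT peaks without a KO overlap added Xpc. With a window of 50 kb, 5 members had a WT peak and 4 had a KO peak, where 3 and 0 did within 5 kb, and 28 further repair genes had a WT-specific peak in place of 11. With the longer 50% of the list, 5 of the further genes had one. Of 21 alternative distances, 6 moved by over 1.5 times. To the nearest WT peak without a KO overlap, the distance was 308 bp for Xpc, 657597 bp for Ddb2 and 284129 bp for Rrm2b. From the start site to the nearest WT-specific peak, it was 684 bp for Ercc5, 81 bp for Polk and 190901 bp for Fancc. The Fancc start used lies inside the gene span. No paired analysis was possible because each genotype has 1 peak list and no values per sample, and for the same reason no replicate could be left out.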

Other observations

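The share of RefSeq start windows with p53 half-sites was counted apart for those under a WT-specific peak. Of 163 such windows, 20.2% had a half-site without mismatch and 8.59% had a pair, against 8.30% and 2.68% of the 32688 others. Windows of 1 gene can overlap, and no test was made. Of the listed repair genes, Mgmt alone had a window under a WT-specific peak, over 56 bp, and it held 2 half-sites with 1 mismatch and no pair.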
